A study of Homo sapiens with 3 samples.

Results

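A set of 9 genes linked to the RNA helicase DDX3X, through Wnt signalling or through control of translation, was followed in ribosome profiling of HEK293T cells. They were CSNK1E, DVL1, DVL2, CTNNB1, CCND1, CCNE1, MYC, RAC1 and ODC1, a list of names that no measured value entered as a criterion, though it was drawn up with earlier results of these data known. Of the 9 genes, 7 had at least 1 ribosome footprint peak, among 3582 genes with a peak in any sample, and they held 150 of 46819 peaks. Each peak was credited to the gene whose RefSeq transcript its annotation names, where the lists pair that transcript with a gene name, and otherwise to the nearest gene named.

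HEK293T is a transformed human embryonic kidney line. The labels enter its cell type as neuronal, and of 7 neuronal genes looked up (RBFOX3, MAP2, SYT1, SNAP25, TUBB3, ELAVL4 and DCX) only TUBB3 had a peak in any list. Cells were transfected for 24 h with empty vector, with FLAG-tagged wild-type DDX3X or with FLAG-tagged DDX3X carrying G325E, a mutation found in medulloblastoma. Per the labels all 3 cultures then received harringtonine (2 µg/ml, 90 s), which holds initiating ribosomes, and cycloheximide (100 µg/ml), which halts elongating ones, while the study's methods name cycloheximide alone. Both DDX3X forms were carried on pCDNA3.1 with the tag at the N terminus, transiently overexpressed beside the DDX3X of the cells themselves, and there was 1 library per construct. No difference between constructs therefore has a replicate check, no test was run, and construct and library cannot be told apart.

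Wnt ligands act through Frizzled and LRP receptors, and the signal passes to the Dishevelled proteins, which casein kinase 1 epsilon phosphorylates. Dishevelled restrains the complex that marks β-catenin for destruction, so that β-catenin accumulates and, with TCF factors in the nucleus, turns on genes such as MYC and CCND1. DDX3X is known both as a regulatory partner of casein kinase 1 epsilon in this pathway and as a helicase that helps ribosomes scan structured 5′-UTRs. The mRNAs of cyclin E1 and RAC1 have been studied as targets of that second role, and the mRNA of ornithine decarboxylase is known for a long, structured 5′-UTR.

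The data were 3 lists of peak positions, with no height, read count or depth. The vector list held 11219 peaks on 2023 genes, the wild-type list 19920 on 3007 genes and the G325E list 15680 on 2312 genes. Numbers of peaks are therefore given beside the length of the list, as peaks per 10000, and 95% intervals are exact intervals for counting error alone, because peaks of one gene are not independent. A gene with 0 peaks could hold up to 3 by counting error, which is 2.67 per 10000 under vector, 1.51 under wild-type DDX3X and 1.91 under G325E. DDX3X itself had 0 peaks under vector, 32 under wild-type DDX3X and 9 under G325E, so peaks on the transfected gene were present in both lists that carry it.

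The peaks of all 3 lists followed a grid along the genome. Cut into 900-base windows that start at multiples of 900, the genome needed 3429 windows to hold every vector peak. The other starting points tried, evenly spaced along the window, needed 3477 to 3982. The wild-type list needed 5746 windows against 5846 to 6679, and the G325E list 3674 against 3798 to 4367. No such dip appeared with windows of 800 or 1000 bases. Peaks on the 9 genes fell in 15 of these windows, and a window could be filled in 1 list and empty in another, so each gene is described below by window as well as by number. The study describes calling by nested bins of the genome, split into ever smaller ones, and the size of the smaller bins is not given in the sources used here.

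A few stretches of reference sequence, 5 in all, are shown because the peaks that recur between lists, or that 1 list alone holds, lie on them. They were read from GRCh37 on the strand of the gene, from 5′ to 3′, and each is at most 30 bases. The RAC1 stretch (chr7:6414354-6414383, plus strand) lies under a peak of all 3 lists, and its capitals mark the start codon. In the CSNK1E coding (chr22:38690349-38690378, minus strand) and CSNK1E intron 1 (chr22:38712918-38712938, minus strand) stretches, capitals mark bases under a peak of all 3 lists. In CCND1 (chr11:69466016-69466045, plus strand) they mark bases under a peak of both wild-type and G325E, and in DVL1 (chr1:1284313-1284340, minus strand) bases under a G325E peak.
CCND1 coding: GCACACCCACCGACGTGCGGGAcgtggaca
RAC1 start codon: gcgagcggccctgATGcaggccatcaagtg
CSNK1E coding: TCCACGCCAGCCTCCCGCATCCAGCCGGct
CSNK1E intron 1: GGGGGAGGCCCCCCGGCCGGC
DVL1 coding: GTGCTCAGCAACCGGCCCGTGCACGCCT
The CSNK1E coding stretch begins at codon 350, the CCND1 stretch in codon 285 and the DVL1 stretch at codon 36. GC content was 66.7% at the RAC1 start codon, 71.4% in DVL1 and 95.2% in the CSNK1E intron.

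Together the 9 genes had 40 peaks under vector, 50 under wild-type DDX3X and 60 under G325E, or 0.357%, 0.251% and 0.383% of the lists. The G325E share was 1.52 times the wild-type share, a log2 ratio of 0.61 with a 95% interval of 0.04 to 1.18. This direction turned when only windows filled in all 3 lists were kept, an alternative chosen after the data were seen, with a log2 ratio of -0.15. Without MYC, another alternative added later, it was 1.41. The G325E share against vector gave a log2 ratio of 0.10 (interval -0.50 to 0.72) and wild-type against vector -0.51 (interval -1.14 to 0.13), and both intervals hold 0.

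A call was made where a gene's share of its list differed at least 2-fold, with numbers under 3 peaks raised to 3 and genes at or under 3 peaks in both lists left out. Between G325E and wild-type, 3 of the 6 genes that could be compared were higher in G325E (DVL1, CTNNB1 and RAC1), where 23.9% of all 2630 comparable genes were. None of the 6 was lower, where 14.5% of all genes were. Raising numbers to 3 fixed much of this: DVL1, ODC1, RAC1 and CTNNB1, at 0, 0, 1 and 7 wild-type peaks, could not be called lower. Only CSNK1E and MYC could. Calls from low numbers are bounded in the same way in the other comparisons and in the pathway lists below. Between G325E and vector, DVL1 and CTNNB1 were higher and CCND1 and MYC lower among 7 genes, against 14.2% higher and 19.6% lower over all genes. Between wild-type and vector, CCND1 was lower and none was higher among 4 genes, against 16.3% lower and 6.53% higher over all genes. The median log2 ratio of the comparable genes among the 9 was 0.94 for G325E against wild-type, -0.07 for G325E against vector and -0.42 for wild-type against vector, beside 0.02, -0.07 and -0.37 over all genes. Under 8 other ways of assigning, keeping, counting or scaling peaks, DVL1 was called higher in G325E in all 8, against wild-type and against vector. These 8 reuse the same 13 peaks of 1 window beside 0 in the other lists, so they add no support. With peaks kept only in windows filled in all 3 lists, an alternative added later, DVL1 had no call. The calls of CTNNB1 held in 6 of 8 in both comparisons, that of RAC1 in 4, that of MYC in 4, and that of CCND1 in 5 for G325E and 6 for wild-type against vector. The comparisons share lists, so they are not separate pieces of evidence.

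**Figure D1:**
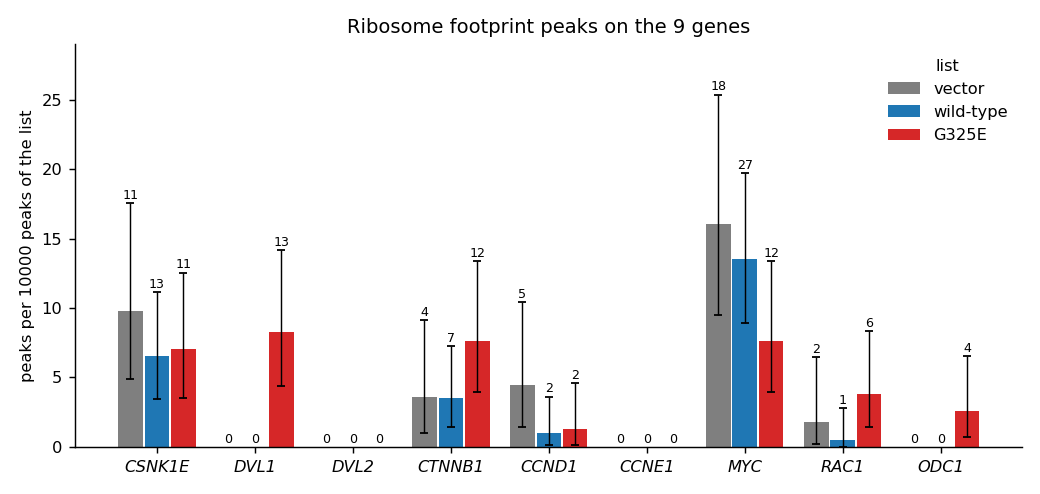
Peaks per 10000 peaks of the list (vertical axis) on each of the 9 genes, with a bar for each list, the number of peaks printed above it and 95% exact Poisson intervals (counting error only) as error bars. DVL1 has 13 peaks in G325E and 0 in the other lists, MYC has the tallest bars in vector and wild-type (18 and 27 peaks), and DVL2 and CCNE1 have none.

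CSNK1E encodes casein kinase 1 epsilon, the kinase that acts on Dishevelled (chr22:38686697-38713438, minus strand, 11 exons). It had 11 peaks under vector, 13 under wild-type DDX3X and 11 under G325E, or 9.81, 6.53 and 7.01 per 10000. The 3 lists overlap within counting error, with a log2 ratio of 0.10 for G325E against wild-type (interval -1.20 to 1.38). Within classes of GC content 20.3 peaks were expected in G325E from wild-type and 30.3 from vector, so both values lay above the 11 observed, the direction against wild-type turned, and CSNK1E was then called lower against vector. The lists differed more in where the peaks lay. In the window over exons 8 and 9, bases under peaks on the gene's strand were 270 under vector, 309 under wild-type DDX3X and 229 under G325E. In the window over the 5′ end of the transcript they were 21, 44 and 365.

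The peaks over exons 8 and 9 were much alike in the 3 lists. Exon 8 was covered over 93.8% of its coding bases under vector, 95.9% under wild-type DDX3X and 87.1% under G325E, and exon 9 over 55.7%, 51.4% and 43.6%. Exon 8 is rich in GC at 74.1%, beside 52.3% to 59.2% in the coding parts of exons 2 to 7, which held no peak in any list. The CSNK1E coding stretch printed above lies in exon 8, where 28 of its 30 bases were under a peak in every list. At the 5′ end, vector had a single 21-base peak on the gene's strand, in intron 1, and wild-type the same peak, the GC-rich intron stretch printed above, with 1 more. G325E held that intron peak too, with a second intron peak of 22 bases, peaks of 75 and 215 bases over exon 1 and one of 30 bases upstream. Exon 1 holds most of a 286-base 5′-UTR with a GC content of 86.0%, higher than 98.6% of annotated 5′-UTRs. CSNK1E shares these exons with the readthrough gene TPTEP2-CSNK1E, and the nearest gene named in the lists for many of these peaks was TMEM184B.

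DVL1 and DVL2 encode Dishevelled scaffolds that relay the signal from the receptors. DVL1 (chr1:1270658-1284798, minus strand, 15 exons) had 0 peaks under vector, 0 under wild-type DDX3X and 13 under G325E, which is 8.29 per 10000. Set against wild-type, the G325E share was at least 5.51-fold higher, and set against vector at least 3.10-fold higher, taking 3 peaks as the most that a count of 0 allows. Both bounds take the 13 peaks as exact, while their own interval was 4.4 to 14.2 per 10000. Peaks in G325E with none in the other lists were found for 13.2% of all genes with a peak, and for 2 of the 7 genes here, DVL1 and ODC1.

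All 13 DVL1 peaks lay in 1 window, over exon 1 and the bases before it. Of these, 9 were on the strand of the gene and 4 on the opposite strand. Among those on the gene's strand, 2 were coding, at codons 26 and 40, and covered 66 of 2085 coding bases. Another 4 were in the 5′-UTR, the longest of 109 bases, and 3 were upstream. The 5′-UTR is 353 bases long with a GC content of 87.5%, higher than 99.3% of annotated 5′-UTRs, and the whole window had a GC content of 80.6%. DVL1 exons 2 to 15 held no peak in any list. DVL2 (chr17:7128661-7137836, minus strand) had 0 peaks in each list. In vector, 6 peaks named DVL2 as the nearest gene, but their RefSeq transcripts belong to PHF23, a neighbour.

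CTNNB1 encodes β-catenin, the effector of the pathway (chr3:41240996-41281934, plus strand, 15 exons). It had 4 peaks under vector, 7 under wild-type DDX3X and 12 under G325E, or 3.57, 3.51 and 7.65 per 10000. G325E was the highest, 2.18 times the wild-type share, but the interval of the log2 ratio of 1.12 was -0.34 to 2.71 and holds 0. Against vector the log2 ratio was 1.10 (interval -0.62 to 3.19).

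The window over exons 8 to 10 was filled in all 3 lists, with 4 peaks under vector, 7 under wild-type DDX3X and 6 under G325E, all of them coding and on the gene's strand. They covered 104, 191 and 114 coding bases. Of these, 3 peaks, of 19, 23 and 2 bases, had the same ends in wild-type and G325E. The remaining 6 G325E peaks lay in a second window at the 5′ end, which was empty in vector and wild-type. They were a 139-base peak over most of exon 1, which is 5′-UTR, with 2 peaks upstream, 2 in intron 1 and 1 on the opposite strand. The 2 windows differ in base composition, with a GC content of 44.3% over exons 8 to 10 and 75.4% at the 5′ end. In the exon 8 to 10 window the 6 G325E peaks stood beside 5.51 expected from the wild-type number and the lengths of the lists. Within classes of GC content 2.50 peaks were expected from wild-type and 2.70 from vector. Both lay under the 6 in this window and the 12 on the gene, and CTNNB1 was still called higher in both comparisons.

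CCND1 and CCNE1 encode cyclins D1 and E1, which drive cells from G1 into S phase. CCND1 (chr11:69455924-69469242, plus strand, 5 exons) had 5 peaks under vector, 2 under wild-type DDX3X and 2 under G325E, or 4.46, 1.00 and 1.28 per 10000. Vector was the highest, with a log2 ratio of -2.15 for wild-type against it (interval -5.54 to 0.46) and -1.81 for G325E (interval -5.20 to 0.81), and both intervals hold 0. Of the vector peaks, 2, of 39 and 56 bases, lay in exon 3, whose window was empty in the other lists.

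The other CCND1 peaks lay in exon 5, which holds the end of the coding sequence. Vector had a coding peak at codon 249 and 2 peaks in the 3′-UTR. Wild-type had a coding peak at codon 290 of 295, shown above, and a 3′-UTR peak. G325E had coding peaks at codons 269 and 288, the second of which began at the same base as the wild-type peak, and none in the 3′-UTR. The 87-base peak at codon 269 was not matched in the other lists. CCNE1 (chr19:30302898-30315219, plus strand) had 0 peaks in every list, and its 5′-UTR has a GC content of 82.3%, higher than 95.6% of annotated 5′-UTRs.

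MYC encodes a transcription factor that drives growth and is a target of Wnt signalling (3 exons, chr8:128748477-128755197, plus strand). It had 18 peaks under vector, 27 under wild-type DDX3X and 12 under G325E, or 16.04, 13.6 and 7.65 per 10000. It was the richest of the 9 genes in vector and wild-type, where 97.9% and 98.7% of genes with a peak had fewer. In G325E 86.8% had fewer. G325E was the lowest, with log2 ratios of -1.07 against vector (interval -2.25 to 0.07) and -0.82 against wild-type (interval -1.94 to 0.20), and both intervals hold 0. Within classes of GC content 19.2 peaks were expected in G325E from wild-type and 17.5 from vector, and the call of MYC as lower against vector ended.

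The lists differed by exon of MYC. In exon 2, 67.4% of coding bases were under a peak under vector, 69.4% under wild-type DDX3X and 61.3% under G325E. In exon 3 the values were 80.9%, 66.6% and 0%. Exon 1 had no peak in vector or G325E, while wild-type had peaks over its 5′-UTR and over 12 of its 30 coding bases. The last coding peak was centred on codon 443 of 454 in vector, codon 424 in wild-type and codon 262 in G325E, so the G325E peaks stopped at the end of exon 2.

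These differences followed whole windows. The exon 2 window was filled in all 3 lists, with 520, 551 and 496 bases under peaks, and has a GC content of 64.3%. The 2 exon 3 windows, with a GC content of 49.6% and 36.2%, held 453 coding bases under peaks under vector, 373 under wild-type DDX3X and 0 under G325E. Over all genes, wild-type windows were also filled in G325E in 13.2% of cases where their GC content was under 40% and in 82.1% where it was 70% or more, while the share also filled in vector ran from 47.5% to 59.2%. The part of base composition in the MYC difference was not tested. The gene CASC11 runs opposite to MYC over exon 1 and most of exon 2, but every peak in those exons was on the strand of MYC.

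**Figure D2:**
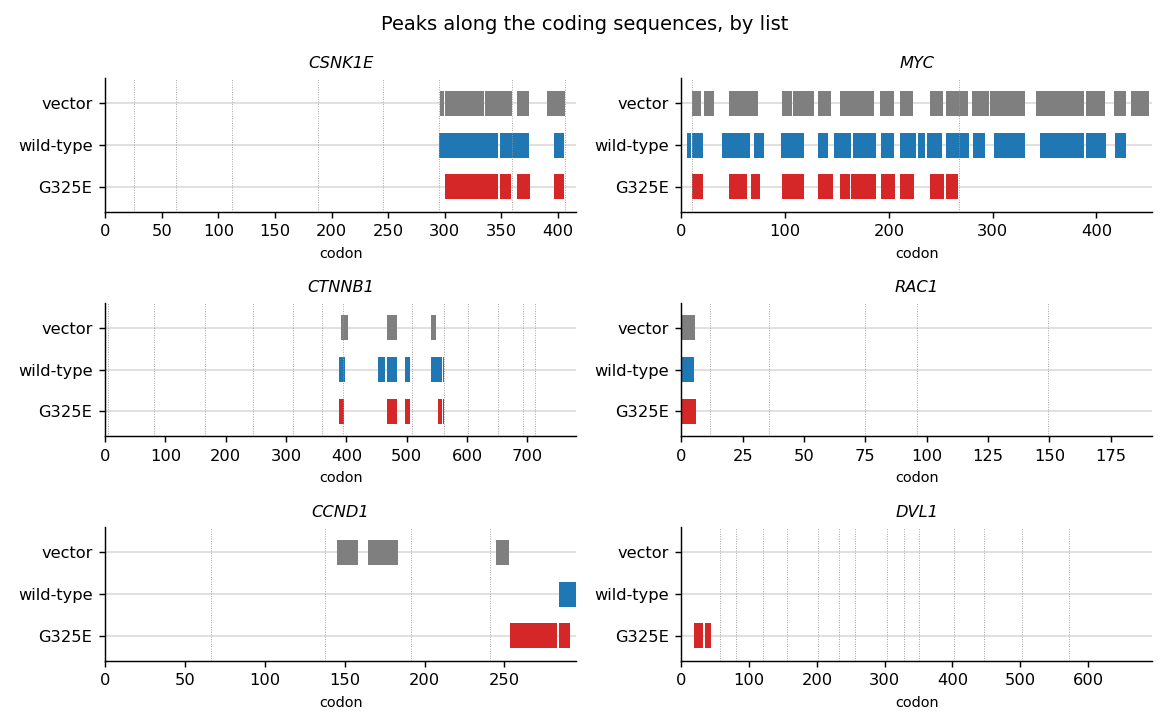
Peaks on the gene's strand along the coding sequence of 6 genes (horizontal axis, codon number), in a row for each list, with dotted lines at exon ends. In MYC the peaks of vector and wild-type run to codons 443 and 424 and those of G325E stop at codon 262, while CSNK1E peaks lie at like positions in all 3 lists and RAC1 peaks cover the start codon.

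RAC1 encodes a small GTPase that shapes the actin cytoskeleton (chr7:6414158-6443598, plus strand, 6 exons). It had 2 peaks under vector, 1 under wild-type DDX3X and 6 under G325E, or 1.78, 0.502 and 3.83 per 10000. The log2 ratio of G325E to wild-type was 2.93, but with 1 peak in wild-type its interval ran from -0.11 to 8.45. Within classes of GC content 10.1 peaks were expected in G325E from wild-type, above the 6 observed, so the direction turned and the call of RAC1 as higher ended. That expected number scales the 1 wild-type peak and carries no interval, so neither direction is established. Against vector the log2 ratio was 1.10 (interval -1.38 to 4.44).

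A single peak over the start codon was common to the 3 lists, with nearly the same ends. It was 63 bases long under vector, 64 under wild-type DDX3X and 64 under G325E, began in the 5′-UTR and reached past the start codon into the codons after it (RAC1 start codon, above). Of 5 genes with peaks in all 3 lists, RAC1 was the 1 whose start codon lay under a peak in each, and 23.2% of all 1388 such genes had this pattern. No RAC1 list held a peak in exons 2 to 6. In G325E, a 133-base peak over the 5′-UTR and 2 peaks upstream came in addition, in a window empty in the other lists. Peaks on the opposite strand lay in intron 1, 1 in vector and 2 in G325E.

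ODC1 encodes ornithine decarboxylase, the first enzyme of polyamine synthesis (chr2:10580094-10588453, minus strand, 12 exons). It had 0 peaks under vector, 0 under wild-type DDX3X and 4 under G325E, or 2.55 per 10000. With 3 peaks as the most that a count of 0 allows, the share in G325E was at least 1.69-fold that in wild-type. That bound takes the 4 peaks as exact. Their interval of 0.695 to 6.53 per 10000 holds the 1.51 that wild-type allows, so a higher share is not shown. No bound can be given against vector, where a count of 0 still allows 2.67 per 10000. Only 1 of the 4 peaks was on the gene's strand, a 117-base peak over the 5′-UTR in exon 1. The other 3 were on the opposite strand, 2 in intron 1 and 1 just before the start of the transcript. No ODC1 peak was coding.

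The 5′ ends were where the lists differed for several of these genes. Of the 15 windows, 6 were filled in all 3 lists, 4 in G325E alone, 2 in wild-type alone, 1 in vector alone and 2 in vector and wild-type but not in G325E. The 4 filled in G325E alone were those of DVL1, CTNNB1, RAC1 and ODC1, and each holds the start of the gene's canonical transcript. Taken whole, with any part beyond exon 1, the 5′-UTRs of these genes differed in GC content. That of DVL1 was higher in GC content than 99.3% of annotated 5′-UTRs and that of RAC1 than 86.9%. The values were 49.7% for CTNNB1 and 54.1% for ODC1, and among the others 52.3% for MYC, 74.9% for CCND1 and 77.3% for DVL2. Exon 1 alone, which holds the G325E peaks over the 5′-UTR, had a GC content of 72.3% in CTNNB1 and 80.7% in ODC1. The 4 windows had 80.6% (DVL1), 75.4% (CTNNB1), 63.8% (RAC1) and 69.8% (ODC1). The part of base composition was not tested. Over all genes, 47.9% of the 1011 windows filled in G325E alone held the start of a canonical coding transcript, as did 36.6% of the 1905 filled in all 3 lists and 10.4% of the 1212 filled in vector and wild-type but not in G325E. Their mean GC content was 63.6% ± 9.51 (SD over windows), 58.8% ± 10.3 and 49.5% ± 10.1.

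**Figure D3:**
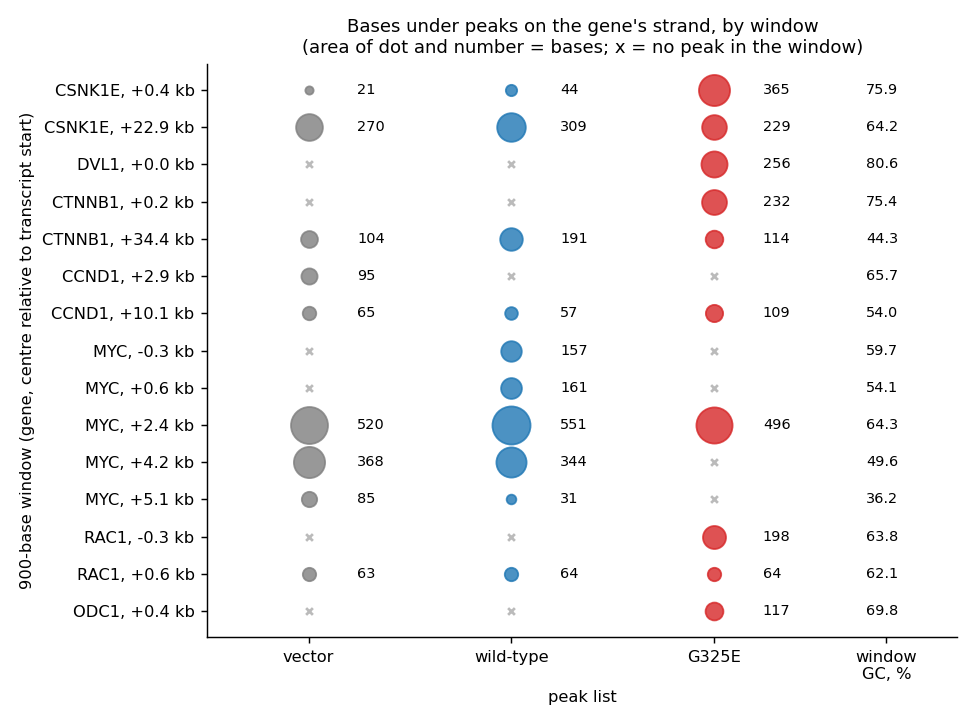
The 15 windows of 900 bases with peaks on 7 of the 9 genes, named by gene and by the distance of their centre from the transcript start, against the list (horizontal axis). Dot area and the number beside it give bases under peaks on the gene's strand, a cross marks a window with no peak, and the last column gives GC content. DVL1, CTNNB1, RAC1 and ODC1 each have a window near the transcript start that is filled in G325E alone, and both windows over MYC exon 3 are empty in G325E.

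In the classes of the annotation, promoter-TSS (the bases around a transcription start) and 5′-UTR together held 1 of 40 peaks on the 9 genes in vector, or 2.50% (exact interval 0.06% to 13.2%). They held 8 of 50 in wild-type, or 16% (7.17% to 29.1%), and 23 of 60 in G325E, or 38.3% (26.1% to 51.8%). The intervals of vector and G325E do not overlap, but they treat peaks as independent, so this is no test. Of the 23 peaks in G325E, 11 were of DVL1, in 1 window, and of the 40 peaks in vector, 18 were MYC coding peaks. Over all genes the shares of the 2 classes together were 28.1%, 26.3% and 43.4%. These lie above the interval of the 9 genes in vector and inside it in wild-type and G325E. Of the genes with a peak, 5 of 7 had a promoter-TSS peak in G325E (CSNK1E, DVL1, CTNNB1, RAC1 and ODC1), where 68.1% of all genes did. In wild-type it was 1 of 5 (MYC, on the opposite strand), where 46.5% did, and in vector 0 of 5, where 45.7% did.

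**Figure D4:**
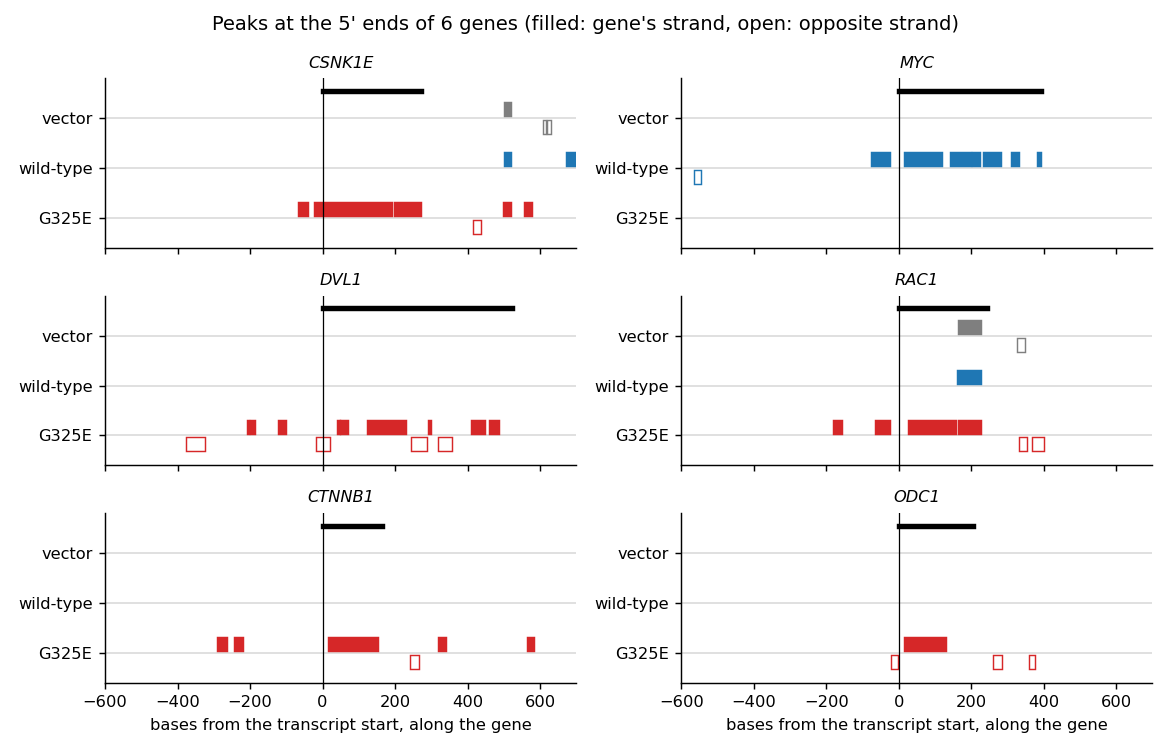
Peaks around the transcript start of 6 genes (horizontal axis, bases from the start along the gene), in a row for each list, filled on the gene's strand and open on the opposite strand, with exon 1 as a black bar. CSNK1E, DVL1, CTNNB1, RAC1 and ODC1 have G325E peaks over exon 1 that the other lists lack, and MYC has exon 1 peaks in wild-type alone.

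Coding peaks lay at a mean fractional position of 0.588 ± 0.266 (SD over 31 peaks, 0 being the start and 1 the end of the coding sequence) in vector, 0.566 ± 0.265 (32 peaks) in wild-type and 0.511 ± 0.298 (25 peaks) in G325E. No interval is given for these means and no test was run. Over all genes the means were 0.492, 0.4997 and 0.393. GC content in the 31 bases around a peak averaged 63.6% ± 13.7 (SD over peaks), 63.6% ± 13.2 and 76.3% ± 14.7 for the 9 genes, beside 62.7%, 62.3% and 73.1% over all genes. Of the peaks on canonical transcripts, 4 of 40, 2 of 48 and 10 of 51 were on the strand opposite to the gene, or 10%, 4.17% and 19.6%. Over all genes these shares were 8.40%, 9.54% and 15.2%, so G325E had the highest share there too.

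Many peaks of the 9 genes recurred between lists. An overlap of at least 1 base with wild-type was found for 77.5% of vector peaks, and with G325E for 50%. For wild-type peaks the shares were 64% with vector and 48% with G325E. For G325E peaks they were 40% with wild-type and 35% with vector. Over all genes, in the same order, the shares were 76.8% and 48.1% for vector peaks, 41.6% and 34.9% for wild-type peaks, and 47.3% and 35.4% for G325E peaks.

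The wider pathway was read from lists of named genes. Among 26 Wnt ligands and proteins that handle them, from WNT1 to the R-spondins, none had a peak in any list. Of 9 Dishevelled and casein kinase 1 genes, 5 had a peak, with 19 peaks under vector, 23 under wild-type DDX3X and 40 under G325E. CSNK1G2, casein kinase 1 gamma 2, had 0, 0 and 13 peaks, the same numbers as DVL1, while CSNK1D had 4, 6 and 3, and DVL3 had none. Of the 5 with a peak, 2 were called higher in G325E than in wild-type and none lower, beside 23.9% and 14.5% over all genes.

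Of 31 receptors and surface regulators, 4 had a peak, and their peaks numbered 17, 17 and 44. FZD1, a Frizzled receptor, had 15, 10 and 12 peaks. LRP5, a co-receptor, had 0, 3 and 13, and ZNRF3, a ligase that removes receptors from the surface, had 0, 0 and 14. LRP5 and ZNRF3 were the 2 of 4 called higher in G325E than in wild-type, and none was lower, beside 23.9% and 14.5% over all genes. In the β-catenin destruction complex, 6 of 17 genes had a peak, with 24, 35 and 21 peaks in all. GSK3B, the kinase that marks β-catenin, had 6, 9 and 8 peaks, PPP2R1A, a scaffold subunit of the phosphatase PP2A, 6, 7 and 7, and GSK3A 0, 5 and 6, while AXIN1 and APC had none. CSNK1A1 had 4, 4 and 0 peaks, SKP1 4, 4 and 0 and CUL1 4, 6 and 0, so G325E lacked peaks on each of them. None of the 6 was called in either direction between G325E and wild-type, where 23.9% of all genes were higher and 14.5% lower. With numbers raised to 3, only GSK3B had enough wild-type peaks for a lower call, so the lack of calls does not mean that nothing differed.

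Of 25 partners of β-catenin in the nucleus and at junctions, CTNNB1 included, 9 had a peak, with 36, 77 and 54 peaks. SMARCA4, a chromatin remodeller, had 16, 20 and 4 peaks, and TCF7L1, a DNA-binding partner of β-catenin, had 7, 8 and 11. LEF1 and BCL9 had none. Between G325E and wild-type, 1 of 7 comparable genes was called higher and 1 lower, shares of all genes being 23.9% and 14.5%.

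Of 22 cyclins of G1 and their kinases and inhibitors, 8 had a peak, with 14, 31 and 54 peaks. CDKN2A, an inhibitor locus, had 9, 9 and 20 peaks and CDKN1C, the inhibitor p57, 0, 0 and 19, and CDC25A, the phosphatase that activates G1 kinases, 0, 6 and 5. CCND2, CCND3, CDK4 and CDK6 had none. Of 6 comparable genes, 3 were called higher in G325E than in wild-type and 1 lower, against 23.9% and 14.5% of all genes.

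Of 10 polyamine genes 5 had a peak, with 15, 31 and 40 peaks, and OAZ1, the antizyme that restrains ornithine decarboxylase, had 6, 15 and 12. SRM, spermidine synthase, had 3, 9 and 10 and OAZ2, another antizyme, 4, 4 and 7. Of 5 comparable genes, 2 were called higher in G325E than in wild-type and none lower, against 23.9% and 14.5% of all genes.

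Of 15 genes of the MYC family and its partners, 7 had a peak, with 28, 62 and 29 peaks. RUVBL2, a helicase that binds MYC, had 4, 14 and 3, and MXD4, a MYC antagonist, 1, 2 and 11. MYCN and MYCL1 had none. Of 6 comparable genes, 1 was called higher and 1 lower between G325E and wild-type, beside 23.9% and 14.5% over all genes as above.

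Set against wild-type, the median log2 ratio of the comparable genes in G325E was 1.56 for the receptors, 0.79 for the G1 genes, 0.76 for the polyamine genes and 0.10 for the Dishevelled and casein kinase 1 genes. It was 0.05 for the destruction complex, -0.14 for the partners of β-catenin and -0.52 for the MYC family, beside 0.02 over all genes. Each list rests on 4 to 7 comparable genes, so these medians are descriptions, and no list was tested.

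The genes with the most similar numbers were found from the 12 peak numbers of each gene (3 lists by promoter-TSS, 5′-UTR, exon and all other classes). CCNA2, which encodes cyclin A2, was nearest to CSNK1E, with a summed absolute difference of 9 peaks and its own 8, 14 and 10 peaks. MCM5 was nearest to CTNNB1, with a difference of 6 and 2, 5 and 10 peaks. MED13 was among 4 genes equally near to DVL1, with a difference of 3 and peaks in G325E alone. SCAF1 was 1 of 2 genes nearest to MYC, at a difference of 19 peaks and with 15, 24 and 15 peaks. MYC had the most peaks of the 9 genes, and a summed difference can grow with the number of peaks.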

How the data were processed

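Ribosome footprints of HEK293T cells were sequenced by the authors, with 1 library for each of 3 constructs, and samples were grouped by their titles. Which of the 2 accounts of the drug treatment applied was not settled. As the study describes it, the authors trimmed adapters (cutadapt, per the submitters' processing notes), aligned reads with BWA 0.5.5 to hg19 (GRCh37) with transcript and junction sequences, removed duplicates, called peaks where coverage passed a cut-off, merged and reviewed them by eye, and annotated them with HOMER (version not given in the sources used here). The deposited lists hold peak positions on hg19, strand, class and nearest gene. They have no depth, so a gene with few peaks may lack them through calling, and list length is not read depth. The study's supplement does give mapped reads per library, which after removal of duplicates were most for wild-type and fewest for G325E. Its coverage cut-off for a peak was fixed. The part of depth in empty windows, counts of 0 and shares was not tested. Peak numbers missing from the authors' numbering came to 1952 for vector, 3099 for wild-type and 0 for G325E, or 14.8%, 13.5% and 0% of the numbering. The reason was not settled. The part of this difference in shares, counts of 0 and windows filled in G325E alone was not tested. The lists kept 163, 272 and 236 peaks of no length, taken as 1 base in overlaps.

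Peaks were placed by midpoint on Ensembl canonical transcripts of GENCODE (lifted to GRCh37), and GC content was read from GRCh37 over 31 bases around the midpoint. Shares carry exact Clopper-Pearson intervals at 95%, ratios of peak numbers the exact conditional binomial interval, and rates the exact Poisson interval, for counting error only. With 1 library per construct no test was run. The ratio and call scripts were tested on simulated data. Software was Python 3.11.15, NumPy 2.4.6, pandas 2.3.3, SciPy 1.17.1, pysam 0.24.0, samtools 1.23.1 and matplotlib 3.10.9. The 9 genes and the pathway lists were chosen with earlier results of these data known. Besides the 9, the text names of each pathway list up to 3 genes with the most peaks and some of those with 0, and the gene nearest to each of the 9 that had at least 10 peaks. CSNK1A1, SKP1 and CUL1 are named in addition because G325E held no peak on them. The neuronal genes and the genes PHF23, TMEM184B and CASC11 were looked up after the lists were seen. Alternatives covered gene assignment, strand, peaks of no length, bases in place of numbers, scaling, GC classes, equal numbers of the longest peaks, annotation classes, peak position and, added after the data were seen, windows and the removal of MYC. Protein sequences were not used here, and 1 of the pathway lists is not reported here.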

Additional observations from a re-analysis of the deposited data

How the results depend on the processing

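Of 108 recomputed values, 97 stayed the same and 1, whose interval excluded 0, reversed. Same meant within the counting interval, or for counts of genes within 1.5 times. For mean coding positions it meant within a 95% normal interval of the mean, with peaks taken as independent. The log2 ratio of the 9 genes' summed peaks for G325E against wild-type went from 0.61 to -0.15 where peaks were kept only in 900-base windows filled in all 3 lists, and to 1.41 without MYC. Both of these alternatives were added after the data were seen. They differ from the first value by construction, since the former drops windows filled in 1 or 2 lists and the latter drops the gene with the most peaks. Genes at least 2-fold lower in G325E than in wild-type went from 0 to 1 with bases in place of peak numbers and to 1 with scaling by the median of per-gene ratios. Genes at least 2-fold lower in G325E than in vector went from 2 to 1 on the gene's strand only, to 0 with scaling by the median of per-gene ratios, to 0 with 11219 of the longest peaks from each list, and to 1 with exon, 5′-UTR and promoter-TSS peaks only. Genes at least 2-fold higher in that comparison went from 2 to 1 with the longest peaks and to 1 with those 3 classes. Genes at least 2-fold lower in wild-type than in vector went from 1 to 2 with the nearest gene named in place of the annotated transcript, which brings in DVL2. The cause of the other moves was not tested. Of 33 recomputed log2 ratios of summed peaks, 5 changed sign. Besides the reversal, G325E against vector went from 0.10 to -0.09 within GC classes and to -0.10 in shared windows, and wild-type against vector from -0.51 to 0.06 with the median of per-gene ratios and to 0.05 in shared windows. Within GC classes the genes lower in G325E than in vector were CSNK1E and CCND1 in place of CCND1 and MYC. The promoter-TSS and 5′-UTR shares stayed within their intervals under each alternative run. No paired analysis was possible because each construct had 1 library. With few peaks per gene, a 2-fold difference is within counting error for CSNK1E, CTNNB1, CCND1, MYC and RAC1.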
